A study of Mus musculus with 6 samples.

Results

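The core autophagy machinery is described here across 6 RNA-seq libraries of activated mouse CD8+ T cells. It was taken as a list of 35 genes of autophagy initiation, lipid phosphorylation and conjugation, with 2 transcription factors of the pathway. Of these, 32 had a row in the deposited table of 11175 genes, and all 32 reached the mean of 1 FPKM (fragments per kilobase of transcript, scaled to library size) that was required for testing. The other 3, Atg4c and Wipi1 among them, were not analysed here. After that filter 10887 genes were compared in all.

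CD8+ T cells from the spleen of wild-type (WT) mice were stimulated in culture for 48 h with antibodies to CD3 and CD28, either alone (Control, n = 3) or with DOPAC, 3,4-dihydroxyphenylacetic acid, a breakdown product of dopamine (n = 3). Both groups share the stimulation, so no library shows unstimulated cells. The sources used here do not state the dose of DOPAC, the age of the mice or whether replicates came from separate animals or cultures. Every p therefore measures only how these samples vary, and that variation may be technical. The comparison asks whether DOPAC changed transcript levels of activated CD8+ T cells.

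Macroautophagy wraps cytoplasm or organelles in a double membrane and delivers them to the lysosome. A kinase complex built on ULK1 and FIP200 (Rb1cc1) starts the process, a lipid kinase complex built on VPS34 (Pik3c3) and Beclin 1 marks the membrane, and ATG9A vesicles and ATG2 lipid transfer proteins feed its growth. A ubiquitin-like conjugation system then acts on the growing membrane. In CD8+ T cells the pathway is known for its part in the survival of effector cells and the formation of memory, and much of its control is exerted on proteins rather than on transcripts.

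The libraries carried the T cell genes their labels imply. All 8 T cell markers looked at had a row (summed FPKM of 788 to 937 in control libraries and 729 to 831 with DOPAC), as did Cd8a and Cd8b1 (323 to 355 and 313 to 358). For CD4 T cell, dendritic cell and NK cell markers no gene was analysed here. Traces of transcripts that mark other cells were also present, and whether they came from such cells was not tested. The macrophage genes Lyz2 and Cd68 (2 of 5 markers) summed to 14.2 to 33.8 FPKM in control libraries and 4.45 to 12.4 with DOPAC, 3 of 4 fibroblast markers to 25.7 to 27.9 and 0.330 to 16.01 (lowest in DOPAC replicate 1), and the globin genes Hba-a1 and Hbb-bs (2 of 5 erythroid markers) to 2.72 to 10.4 and 0.280 to 3.02. Cd79b (1 of 5 B cell markers) lay between 1.47 and 2.61 in all 6 libraries. None of the measured markers was at 0 in any library, and the part of these traces in the values below was not tested. In bulk RNA, fewer cells of a type and less RNA per cell cannot be told apart. FPKM keep no read counts, so the depth of the libraries is unknown. Their FPKM sums ran from 283818 to 316035. Control replicate 1 stood apart, with correlations over genes of 0.899 to 0.917 with the rest (Pearson's r of log2(FPKM + 1)), while the other 5 libraries gave 0.974 to 0.992 among themselves. Results whose value turns on this library are therefore given with and without it.

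No autophagy gene passed the test between control and DOPAC libraries, and the 2 members with the smallest p were a protease gene, Atg4a, with higher values under DOPAC, and a transcription factor gene, Tfe3, with lower ones. With limma's moderated test and Benjamini-Hochberg adjustment over all genes, 0 of 32 members had an adjusted p under 0.05 (background 0% of the 10887 genes). At an unadjusted p below 0.05 there were 2 members, 1 higher and 1 lower, beside 4.19% of all genes (2.73% higher and 1.46% lower), and the lowest adjusted p of a member was 0.801. The authors' deposited table also had 2 members at an unadjusted p below 0.05, with a lowest adjusted p of 0.801. The median log2 fold change of the 32 members was 0.067, that of all genes 0.066. Both medians lost this offset without control replicate 1, at 0.00085 and -0.011. In FPKM, the members together summed to 246, 267 and 271 in the controls and to 262, 265 and 256 with DOPAC, which is 0.0792% to 0.0940% and 0.0828% to 0.0895% of each library's summed FPKM. The 2 groups overlapped in both quantities.

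Individual members leaned in both directions. Positive log2 fold changes were found for 19 and negative ones for 13, against 62.1% positive among all genes, and for 16 and 16 without control replicate 1, against 47.3%. In 3 members all DOPAC libraries lay above all controls (Atg4a, Atg9a and Rb1cc1; background 12.4%), and in 2 all lay below (Tfe3 and Tfeb; background 4.8%). The intervals give the range of differences these libraries allow on the log2(FPKM + 1) scale. That scale understates fold changes of low genes, so the counts below depend on the pseudocount. With all 6 libraries the 95% interval of the log2 fold change lay inside -0.5 to 0.5 (a 1.41-fold change in FPKM + 1) for 15 of 32 members (33.9% of all genes), and inside -1 to 1 for 31, Epg5 being the exception. Without control replicate 1 these counts were 28 (76% of all genes) and 32.

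**Figure D1:**
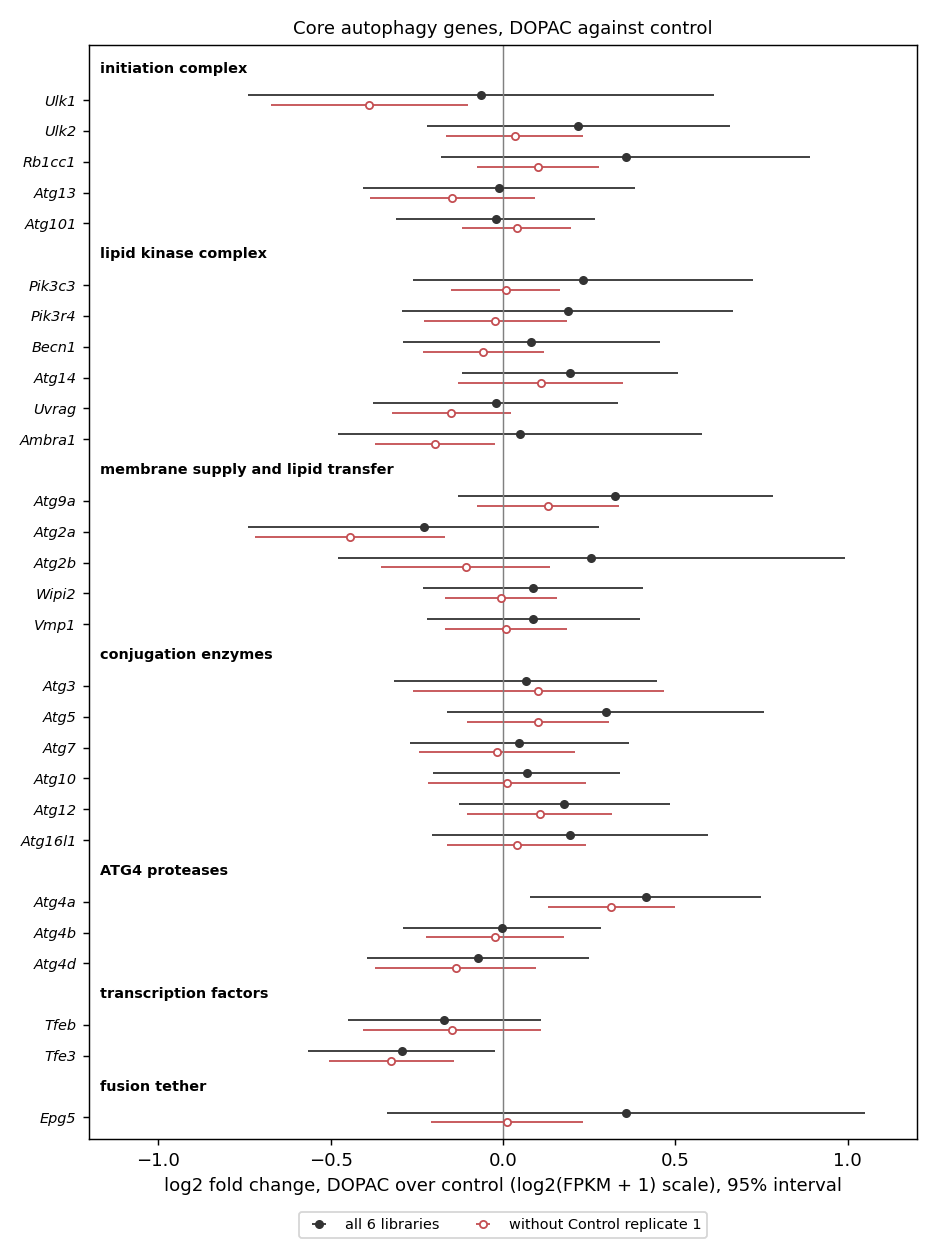
Log2 fold change of each of 28 autophagy genes, DOPAC over control, on the log2(FPKM + 1) scale (x axis), by role in the pathway (y axis). Points and bars are limma estimates with 95% intervals, filled for all 6 libraries and open without control replicate 1. Of the intervals from all 6 libraries, those of Atg4a and Tfe3 lie clear of 0.

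Transcript levels differed widely between members. FPKM values are scaled by length, although control replicate 1, which enters these means, kept a dependence on exon length, so the order of the levels is approximate. The members' mean over the 6 libraries had a median of 5.22 FPKM, below the 7.67 of all genes tested. Among the members described singly, Becn1 had the highest value at 18.2 FPKM and Atg10 the lowest at 1.41 FPKM. Exons of Cntd1 overlap those of Becn1 in part, as given below, and whether reads were shared was not tested. Becn1 stood at the 74.2nd percentile of all genes, whereas Tfeb (9.98th) and Atg10 (6.42nd) were among the weakly expressed genes that passed the filter.

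The proteases and the transcription factors held the 2 members with the lowest p, Atg4a and Tfe3, both on the X chromosome. Atg4a (ENSMUSG00000079418, X chromosome, 140956907 to 141164270, plus strand, GENCODE M21 on GRCm38) encodes 1 of the ATG4 cysteine proteases, which act in the conjugation system. Its FPKM was 4.90, 6.04 and 6.50 in control libraries and 8.43, 8.04 and 7.65 with DOPAC. Every DOPAC library lay above every control, with the lowest value in control replicate 1. The means were 5.81 ± 0.822 and 8.04 ± 0.393 FPKM (SD, n = 3 each), a ratio of 1.38. On the log2(FPKM + 1) scale Atg4a was higher by 0.41 (95% interval 0.080 to 0.75, limma adjusted p = 0.801), and without control replicate 1 it was 0.31 (95% interval 0.13 to 0.50, limma adjusted p = 0.295).

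Tfe3 and Tfeb encode related basic helix-loop-helix factors that enter the nucleus when mTORC1 signalling drops and activate lysosomal and autophagy genes. Tfe3 (ENSMUSG00000000134, X chromosome, 7762560 to 7775202, plus strand) measured 3.65, 3.89 and 4.004 FPKM in control libraries and 2.88, 3.02 and 2.96 FPKM with DOPAC. The 3 DOPAC values were close together and all lay below the controls. The means were 3.85 ± 0.181 and 2.95 ± 0.0725 FPKM (SD, n = 3 each), and the log2 fold change came to -0.29 (95% interval -0.56 to -0.023, limma adjusted p = 0.801). It was -0.32 without control replicate 1 (95% interval -0.51 to -0.14, limma adjusted p = 0.295). With the replicate number as a block, the count of members at an unadjusted p below 0.05 was 1 in place of 2 (4.46% of all genes in that fit), with Atg4a kept and Tfe3 no longer among them (limma adjusted p = 0.698 for both). Tfeb (chromosome 17) was at 1.92, 1.83 and 1.76 FPKM in control libraries and 1.55, 1.32 and 1.70 with DOPAC. Here too the groups did not overlap, but by a narrow margin at a low level, and the interval of its log2 fold change of -0.17 spanned 0 (95% interval -0.45 to 0.11). In the same libraries the summed macrophage and fibroblast traces given above were lower with DOPAC too, and their part in the Tfe3 and Tfeb values was not tested.

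**Figure D2:**
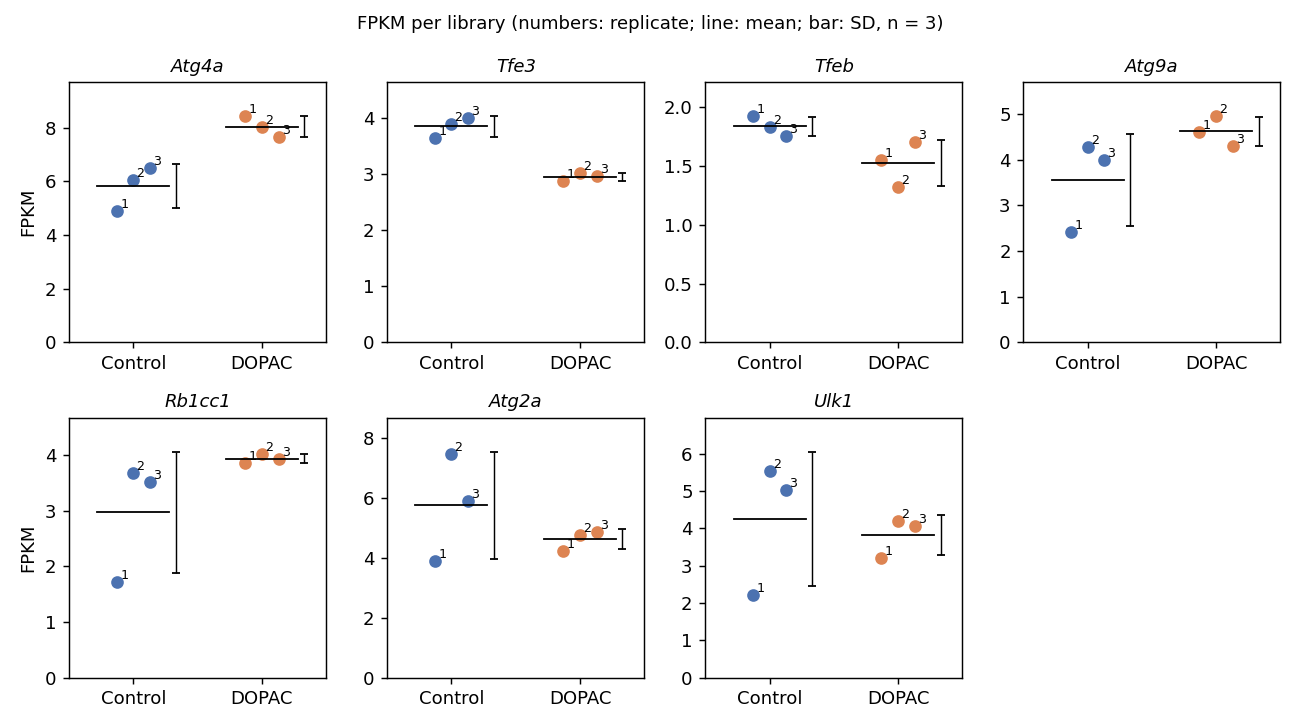
FPKM (y axis, from 0) of 7 autophagy genes in the 3 control and 3 DOPAC libraries, each point 1 library with its replicate number, lines the means and bars the SD (n = 3). Atg4a, Tfe3, Tfeb, Atg9a and Rb1cc1 show no overlap between groups, and control replicate 1 is the lowest library for Atg4a, Atg9a, Rb1cc1, Atg2a and Ulk1 and the highest for Tfeb.

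TFE3 and TFEB bind the E-box CACGTG, so the promoters of the members were read for these letters. RefSeq windows on GRCm38.p6 (250 bases before to 50 after a start, both strands searched) were found by symbol for 26 of the 32 members and 7687 of the genes tested. CACGTG was in a window of 4 members (15.4%), Atg3, Atg5, Atg7 and Atg14, and of 12.6% of the tested genes. It was in 7.15% of all 32851 windows. The windows that held it in Atg7 and Atg14 lay inside the gene, past its GENCODE start. The bases just after the start matched a GENCODE transcript of the gene in 19 of 21 plus-strand windows and 6 of 11 minus-strand ones. TCACGTGA was in the window of 1 member, Atg3 (2.58% of the tested genes and 0.974% of all windows), a word that contains CACGTG. The stretches below are shown because they hold the E-boxes of 2 conjugation genes upstream of every annotated start, chr16:45158715-45158783 for Atg3 and chr10:44268305-44268338 for Atg5, both on the plus strand, with CACGTG in capitals.
Atg3: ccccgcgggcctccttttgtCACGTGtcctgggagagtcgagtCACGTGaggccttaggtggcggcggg
Atg5: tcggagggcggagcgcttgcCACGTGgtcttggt
Atg3 holds 2 copies, and its second copy is the one inside TCACGTGA. The log2 fold changes of the 4 genes were 0.066 for Atg3, 0.30 for Atg5, 0.047 for Atg7 and 0.19 for Atg14, all with intervals that spanned 0, and 0.10, 0.10, -0.018 and 0.11 without control replicate 1.

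The promoters of Atg4a and Tfe3 are shown because these genes had the lowest p, with the searched words in capitals: CCAAT, the box bound by NF-Y, and the hypoxia response element core, which is ACGTG or, in its other form, GCGTG. The stretches lie upstream of the GENCODE starts, chrX:140956657-140956906 for Atg4a and chrX:7762411-7762559 for Tfe3, both on the plus strand. RefSeq gives Atg4a a second, more distal start, whose window holds 1 ACGTG.
Atg4a: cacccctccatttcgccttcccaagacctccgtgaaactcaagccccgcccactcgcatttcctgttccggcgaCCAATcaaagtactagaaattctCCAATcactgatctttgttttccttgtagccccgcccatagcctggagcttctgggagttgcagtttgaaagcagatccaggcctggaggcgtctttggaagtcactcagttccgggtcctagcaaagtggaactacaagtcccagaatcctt
Tfe3: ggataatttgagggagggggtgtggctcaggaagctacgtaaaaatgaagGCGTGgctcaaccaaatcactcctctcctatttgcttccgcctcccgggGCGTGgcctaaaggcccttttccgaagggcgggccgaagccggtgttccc
The Atg4a stretch held 2 CCAAT and the Tfe3 stretch 2 GCGTG. Beyond the printed bases, the same Atg4a window held 1 more CCAAT and the same Tfe3 window 1, and the window of a second RefSeq start of Tfe3 held 1 CCAAT and 1 GCGTG. Across members ACGTG, which is also part of CACGTG, was in a window of 12 of 26 (46.2%, against 31.1% of the tested genes and 19.6% of all windows), GCGTG in 18 (69.2%, against 58.2% and 32.4%) and CCAAT in 8 (30.8%, against 43.5% and 37.4%). A match of letters is a description and not a binding site.

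The groups overlapped in the other 2 measured ATG4 genes. Atg4b, the family member with the broadest known activity, measured 5.39, 5.34 and 6.003 FPKM in control libraries and 5.82, 5.56 and 5.29 FPKM with DOPAC, with the 2 groups mixed. Atg4d, at 4.27, 5.18 and 4.92 and then 4.53, 4.03 and 4.96 FPKM, overlapped too. Exons of Kri1 on the other strand cover 19.3% of its exon length, and the libraries do not mark strand. The log2 fold changes were -0.0035 (95% interval -0.29 to 0.28) for Atg4b and -0.072 (95% interval -0.39 to 0.25) for Atg4d. Within the summed FPKM of the 3 measured ATG4 genes, Atg4a made up 33.6%, 36.5% and 37.3% in control libraries and 44.9%, 45.6% and 42.7% with DOPAC. That share averaged 35.8 ± 1.92% and 44.4 ± 1.51% (SD, n = 3 each) and was thus 8.59 percentage points higher with DOPAC, 7.50 to 9.43 when 1 library was left out at a time. Atg4b and Atg4d made up less of the sum than in any control, at 29.6% to 31.5% against 32.2% to 37.0% and at 22.9% to 27.7% against 28.2% to 31.3%. The shares restate the higher FPKM of Atg4a and have no test of their own.

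**Figure D3:**
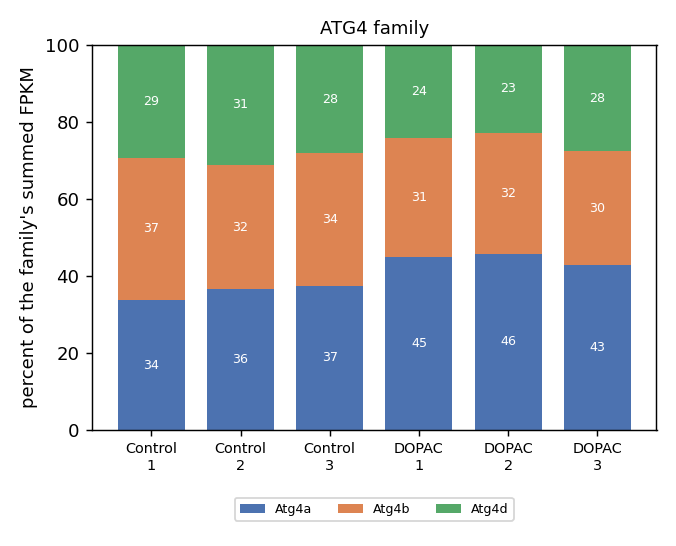
Share of each gene in the summed FPKM of the ATG4 family (y axis, percent) in each of the 6 libraries (x axis), for the 3 measured ATG4 genes. Atg4a takes 33.6% to 37.3% in control libraries and 42.7% to 45.6% with DOPAC.

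The initiation complex phosphorylates the first downstream targets at the site where the membrane forms. Rb1cc1, which encodes the scaffold FIP200, was at 1.71, 3.67 and 3.52 FPKM in control libraries and 3.85, 4.02 and 3.93 FPKM with DOPAC. The DOPAC libraries lay above the controls, but 2 of the controls were close to them, and the log2 fold change of 0.36 (95% interval -0.18 to 0.89) became 0.10 without control replicate 1. Ulk1, the kinase that nutrient sensors act on, measured 2.202, 5.54 and 5.02 FPKM in control libraries and 3.20, 4.19 and 4.07 FPKM with DOPAC. Its groups overlapped only because of control replicate 1. The log2 fold change of -0.064 (95% interval -0.74 to 0.61) became -0.39 without that library (95% interval -0.67 to -0.10, limma adjusted p = 0.295). The paralog Ulk2 was at 3.63 ± 0.993 and 4.30 ± 0.148 FPKM (SD, n = 3 each), with 0.22 and 0.034 for the same 2 estimates. Atg13 and Atg101, adaptor subunits of the complex, had fold changes close to 0. Atg101 had 12.7, 10.8 and 11.4 FPKM and then 11.6, 11.4 and 11.2 FPKM, with -0.021 (95% interval -0.31 to 0.27), or 0.039 without control replicate 1. Atg13 had 8.89 ± 1.61 and 8.75 ± 0.872 FPKM (SD, n = 3 each), and -0.011 (95% interval -0.40 to 0.38), or -0.15 without control replicate 1.

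In the lipid kinase complex, which makes phosphatidylinositol 3-phosphate, control replicate 1 was the lowest of the 6 libraries for all 6 genes, where 58.6% of all genes had it lowest. Becn1, the scaffold Beclin 1, was at 14.3, 19.2 and 19.7 FPKM in control libraries and 17.6, 19.1 and 19.3 FPKM with DOPAC, and Cntd1 on the other strand covers 43.9% of its exon length. The other 2 controls lay within or just above the DOPAC range, and the log2 fold change went from 0.082 (95% interval -0.29 to 0.46) to -0.058 without it (95% interval -0.23 to 0.12). Atg14, the subunit that directs the complex to autophagy, had 1.34, 1.88 and 1.72 and then 1.87, 2.22 and 1.98 FPKM, with 0.19 (95% interval -0.12 to 0.51). Pik3c3, the catalytic subunit VPS34, went from 0.23 to 0.0077 without control replicate 1, with a remaining interval of -0.15 to 0.17, and its partner Pik3r4 from 0.19 to -0.023. Uvrag, which takes the place of ATG14 in a second form of the complex, had -0.021 and -0.15, and Gm45187 on the other strand covers 17.6% of its exon length. Ambra1, a regulator of Beclin 1 and ULK1, turned from 0.049 to -0.20 (95% interval -0.37 to -0.024, limma adjusted p = 0.320).

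Among genes of membrane supply, Atg9a encodes the scramblase of the seed vesicles. It was at 2.41, 4.28 and 3.98 FPKM in control libraries and 4.61, 4.95 and 4.30 FPKM with DOPAC. The lowest DOPAC library was barely above the highest control, and the log2 fold change was 0.33 (95% interval -0.13 to 0.78) and 0.13 without control replicate 1. Exons of Gm29253, on the same strand, cover 31.8% of its exon length, so its value is uncertain. Atg2a and Atg2b, the 2 paralogous lipid transfer proteins, had estimates of opposite sign with all 6 libraries and both negative ones without control replicate 1. Atg2a had 3.90, 7.47 and 5.90 FPKM in control libraries and 4.24, 4.76 and 4.87 FPKM with DOPAC. Its log2 fold change was -0.23 (95% interval -0.74 to 0.28), and -0.44 without control replicate 1 (95% interval -0.72 to -0.17, limma adjusted p = 0.295). Atg2b had 8.06 ± 3.44 and 9.23 ± 0.856 FPKM (SD, n = 3 each), with 0.26 and -0.11. The difference between these paralogs was not tested. Vmp1, a scramblase of the endoplasmic reticulum, was at 14.0, 16.6 and 16.8 and then 15.8, 17.3 and 17.4 FPKM (log2 fold change 0.088, 95% interval -0.22 to 0.40). Wipi2, which reads the lipid mark, had 5.15 ± 0.667 and 5.51 ± 0.0710 FPKM (SD, n = 3 each; log2 fold change 0.087, 95% interval -0.23 to 0.41). For these 2 genes the values were 0.0097 and -0.0060 without control replicate 1.

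All 6 conjugation genes had positive log2 fold changes with the deposited scaling (62.1% of all genes), and control replicate 1 was lowest in 5 (58.6%). Atg7 was negative with quantile normalization, equal medians or the length trend removed, and Atg3 with library weights. Of the 6, 0 had an unadjusted p below 0.05 (4.19% of all genes). Atg5, the acceptor of ATG12, was at 10.7, 16.4 and 16.7 FPKM in control libraries and 16.4, 19.2 and 18.1 FPKM with DOPAC (log2 fold change 0.30, 95% interval -0.16 to 0.76). Atg10, the E2-like enzyme that makes this bond, was the lowest, at 1.18, 1.43 and 1.46 and then 1.55, 1.39 and 1.46 FPKM (0.068, 95% interval -0.20 to 0.34). Atg12, the ubiquitin-like protein itself, had 2.96 ± 0.410 and 3.46 ± 0.0813 FPKM, and Atg16l1, which places the conjugate on the membrane, 3.74 ± 0.872 and 4.36 ± 0.180 FPKM (SD, n = 3 each). Atg7, the E1-like enzyme of both conjugation branches, differed by 0.047 (95% interval -0.27 to 0.37). Atg3, the other E2-like enzyme, was at 13.2 ± 0.634 and 14.0 ± 2.77 FPKM (SD, n = 3 each). DOPAC replicate 1 alone stood high for Atg3, at 17.2 FPKM against 12.7 and 12.2 in the other 2, and without it the log2 fold change turned from 0.066 to -0.080. Without control replicate 1 the 6 genes ranged from -0.018 (Atg7) to 0.11 (Atg12). Epg5, which tethers the finished autophagosome to the lysosome, had 1.52, 4.15 and 4.16 FPKM in control libraries and 3.76, 4.45 and 4.41 FPKM with DOPAC, with 0.36 (95% interval -0.34 to 1.05) and 0.012 without control replicate 1 (95% interval -0.21 to 0.23).

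Without control replicate 1, 5 of 32 members had an unadjusted p below 0.05 (14.5% of all genes did), 1 higher and 4 lower: Atg4a, and Tfe3, Atg2a, Ulk1 and Ambra1. The background was 5.57% higher and 8.89% lower. The lowest limma adjusted p among them was 0.295, and 0 members were among the 2 genes (0.0184%) past the threshold in that fit. In that fit 3 members lay above both remaining controls in all DOPAC libraries (background 15.3%) and 6 below (background 21.5%), shares close to or under those of all genes. The count at an unadjusted p below 0.05 was 1 without control replicate 2 (5.99% of all genes) and 1 without control replicate 3 (4.03%). It was 0 without DOPAC replicate 1, 2 or 3, where 2.31%, 2.51% and 2.12% of all genes reached that p. With library weights (8.34% of all genes) and with the length trend removed (10.6%) it was 3, Atg2a beside Atg4a and Tfe3.

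The deviation of control replicate 1 went with exon length across all genes, and less closely across the members described singly. This library was the lowest of the 6 for 22 members (58.6% of all genes) and the highest for 6 (20.9%), Atg101 and Tfeb among them. Across the 32 members, its deviation from the mean of the other 5 libraries on the log2(FPKM + 1) scale had a Pearson's r of -0.53 with log2 summed exon length, beside -0.52 across 10802 genes. Over the 28 members described singly it was -0.37. These points share a library and are no independent replicates. The 9 members above 8000 bp had a median deviation of -0.49, with Epg5 at -1.04 and Atg2b at -1.03, and the 7 members under 3000 bp one of 0.16, with Atg101 at 0.16. For all genes the 2 medians were -0.67 and 0.15. The median log2 fold change of the members above 8000 bp was 0.19 with all libraries and -0.023 without control replicate 1. Tfe3 and Atg4b were exceptions to the trend, with long exons (9261 and 8278 bp) and deviations of 0.10 and -0.046. Atg4a and Atg5 were exceptions too, with short exons (2661 and 2352 bp) and deviations of -0.49 and -0.65. Tfeb, at 5669 bp, had 0.15, against a median of -0.32 for the 16 members of 3000 to 8000 bp. With the length trend removed from every library, Atg4a had a log2 fold change of 0.39 (limma adjusted p = 0.426) and Tfe3 of -0.46 (adjusted p = 0.452).

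**Figure D4:**
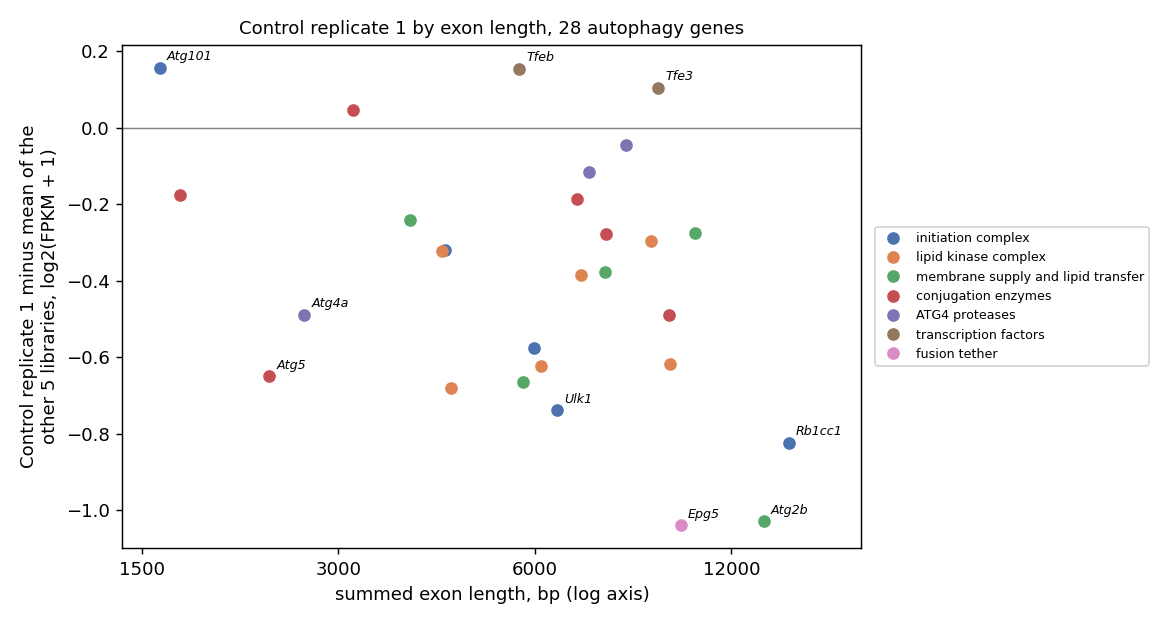
Deviation of control replicate 1 from the mean of the other 5 libraries on the log2(FPKM + 1) scale (y axis) against summed exon length in bp (x axis, log scale), 1 point for each of 28 autophagy genes, coloured by role. Long genes such as Epg5 and Atg2b lie near -1.04 and -1.03, while Atg101 lies at 0.16.

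In the wider pathway, too, no gene passed the test. Of 72 further genes of cargo recognition, assembly, fusion and nutrient sensing, 64 were tested. Castor1 fell under the filter, and Prkaa2, Rilp, Rubcnl, Optn, Calcoco2, Deptor and Wdfy3 were not analysed here. Of the 64, 0 had a limma adjusted p under 0.05. At an unadjusted p below 0.05 there were 3, all higher with DOPAC (background 2.73% higher and 1.46% lower), and in 13 the DOPAC libraries lay above the controls (background 12.4%), while in 0 they lay below (background 4.8%). Without control replicate 1, 5 were higher and 6 lower at an unadjusted p below 0.05 (background 5.57% and 8.89%), and the DOPAC libraries lay above both remaining controls in 14 and below them in 14 (background 15.3% and 21.5%). Atg9b, the paralog of Atg9a, measured 1.41, 1.89 and 1.73 FPKM in control libraries and 3.08, 2.33 and 2.62 FPKM with DOPAC (log2 fold change 0.46, 95% interval 0.13 to 0.79, and 0.39 without control replicate 1). Exons of Nos3 on the other strand cover 7.45% of its exon length. Tmem41b, a scramblase that works with VMP1, was at 5.45, 7.33 and 7.65 and then 8.53, 8.98 and 9.91 FPKM (0.39, 95% interval 0.010 to 0.76, and 0.25 without control replicate 1). Tex2 and Tbk1, next in that list, had 0.27 and 0.22, and 0.027 and -0.031 without control replicate 1.

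Sesn2, a leucine sensor that restrains mTORC1 and is induced by amino acid stress, had 5.05, 5.90 and 5.63 FPKM in control libraries and 6.48, 6.997 and 8.26 with DOPAC (0.33, 95% interval 0.0025 to 0.67, and 0.28 without control replicate 1). Prkab2, an AMPK subunit, had 0.38 (95% interval -0.081 to 0.83), or 0.18 without control replicate 1. The Rag GTPase genes Rragd and Rraga had 0.22 and 0.25, or 0.19 and 0.25. Without control replicate 1, 12 sensing genes were positive and 17 negative (47.3% of all genes were positive). At an unadjusted p below 0.05, 1 was then higher and 5 lower (background 5.57% and 8.89%). Of these 5, Mtor went from -0.016 to -0.32, Rptor from 0.023 to -0.25 and Mlst8 from -0.12 to -0.22. Flcn went from -0.039 to -0.23 and Sesn3 from 0.017 to -0.26. Exons of Bricd5 on the other strand cover 22.5% of the exon length of Mlst8. Among cargo receptors, Tax1bp1 had 9.91, 15.2 and 14.9 and then 16.6, 16.8 and 17.8 FPKM, and the ferritin receptor gene Ncoa4 4.82, 8.35 and 8.64 and then 9.42, 9.42 and 9.71 FPKM. Their log2 fold changes of 0.36 and 0.38 were 0.17 and 0.15 without control replicate 1, and those of Sec62 (0.20) and Ccpg1 (0.18) were 0.11 and 0.17. Gm44503, on the same strand, covers 42.9% of the exon length of Ccpg1, so its value is uncertain. In the fusion list Vps41 had 0.35, Snap29 0.21, Stx17 0.23 and Vamp8 -0.31. Without control replicate 1 they had 0.21, 0.12, 0.068 and 0.15. The medians of the 4 lists were 0.19, 0.077, 0.047 and 0.043 for cargo receptors, assembly, fusion and sensing, and 0.085, -0.061, -0.057 and -0.057 without control replicate 1.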

How the data were processed

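RNA-seq values came from 3 control and 3 DOPAC libraries, grouped by their library names. Per the labels' protocols, RNA was extracted with TRIzol and made into full-length cDNA and tagmented libraries with kits that do not mark strand. The tools named per the submitters' processing notes are HISAT2 2.2.1 and cutadapt 1.9, with build mm10, and their roles, the estimator and the annotation were not given in the sources used here. Per the file headers, the authors deposited an FPKM for every gene in each library, with their own log2 fold change, p-values and adjusted p-values, whose test the headers do not name. The deposited FPKM keep no depth.

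From these, log2(FPKM + 1) was computed, so fold changes understate those of low genes. The 288 genes with a mean under 1 FPKM were left out. R 4.3.3 with limma 3.58.1 fitted DOPAC against control over all genes with a mean-variance trend. The threshold was a Benjamini-Hochberg adjusted p of 0.05, two-sided, and intervals are 95% intervals of that fit. The code was tried on simulated data with the same spread for every gene and no outlying library. That trial therefore does not cover a library such as control replicate 1. Positions and summed exon lengths came from GENCODE M21, which held 11067 of the listed genes, and promoter windows from RefSeq on GRCm38.p6. Figures were drawn with matplotlib 3.10.9.

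Counts of members are over 32 unless stated, and 4 of these are not reported here singly. The members, their roles and the further lists were chosen with earlier results of these data known. By rule, values per library were given for members at an unadjusted p below 0.05 or without overlap, and for the ATG4 family. They were also given for members with the highest or lowest level in their role. Of the further genes, the up to 4 per list with the smallest p were named. Library values of Ulk1 and Atg2a and the DOPAC values of Atg3 were added outside this rule. So were the sensing genes Mtor, Rptor, Mlst8, Flcn and Sesn3. Same-numbered libraries of the 2 groups deviated together across genes (r of 0.34, 0.16 and 0.28), which met the rule for treating the numbers as pairs. No label ties them to one animal or date, and differently numbered libraries reached like values (control 2 with DOPAC 3 0.24, control 3 with DOPAC 2 0.19). Deviations were taken from each group's mean, and control replicate 1 held 50.6% of their summed squares, so these r are not independent. The reported values come from the fit without the block, and the block is an alternative. Alternatives were the replicate block, library weights, leaving out each library, a length trend removed, quantile normalization, libraries set to equal medians, pseudocounts of 0.5 and 0.1, and a filter at 5 FPKM or none.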

Additional observations from a re-analysis of the deposited data

How the results depend on the processing

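Over 15 alternatives, 0 members had an adjusted p under 0.05 (lowest 0.295, without control replicate 1), and 16 of the 28 members reported singly kept their sign in every one that gave them a value, Atg4a and Tfe3 among these (Atg4a 0.31 to 0.49, Tfe3 -0.46 to -0.27). The 12 others changed sign in at least 1, with a size of at most 0.20 there. Over all genes, 2 passed with library weights and without control replicate 1, and leaving out 1 library gave 0 to 2. The count of members at an unadjusted p below 0.05 was 2, 1 with the filter of 5 FPKM (which left 14 members without a value, Tfe3 among them), 1 with the replicate block, 3 after removal of the length trend, 3 under library weights and 0 to 5 when 1 library was left out. The replicate block changed no other call. The median of the members ranged from 0.00085 to 0.13 when 1 library was left out. Signs turned with quantile normalization for Ambra1 (-0.0064) and Atg7 (-0.0062), and with equal medians for Ambra1 (-0.0091) and Atg7 (-0.011). They turned with library weights for Atg101 (0.038), Becn1 (-0.00082), Ambra1 (-0.14), Atg2b (-0.057), and Atg3 (-0.0090). With the length trend removed they turned for Atg101 (0.022), Becn1 (-0.061), Ambra1 (-0.078), Wipi2 (-0.094) and Atg7 (-0.094). Leaving out 1 library gave -0.20 to 0.17 for Ambra1, -0.068 to 0.039 for Atg101, -0.15 to 0.089 for Atg13, -0.11 to 0.48 for Atg2b, -0.080 to 0.15 for Atg3, -0.032 to 0.042 for Atg4b, -0.018 to 0.12 for Atg7, -0.058 to 0.16 for Becn1, -0.023 to 0.31 for Pik3r4, -0.39 to 0.13 for Ulk1, -0.15 to 0.047 for Uvrag and -0.0060 to 0.14 for Wipi2. Beyond the left-out library itself, the cause was not tested. With 3 libraries per group and an unknown depth, small changes cannot be resolved, in weakly expressed members such as Tfeb and Atg10 or in others. Standard errors of the log2 fold change were larger for Atg2b (0.31) and Epg5 (0.29) than for Tfeb (0.12) and Atg10 (0.11). The pseudocount of 1 narrows the errors of low genes.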
